A study of Mus musculus with 21 samples.

Results

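The voltage-gated sodium and calcium channels, the HCN channels and the sodium leak channel NALCN were examined in the subcommissural organ (SCO) and the hippocampus of newborn mice. The group was defined by gene name: protein-coding genes called Scn with a number and a or b, Cacna1, Cacna2d, Cacnb, Cacng, Hcn or Nalcn. It holds 44 of the 31883 genes of the deposited table; 41 of them are described, and 39 of these were high enough to be tested. Counts, medians and class sums below cover the members described. The SCO is an ependymal secretory organ below the posterior commissure, and the hippocampus is a neuron-rich part of the cortex. Bulk RNA was sequenced from 4 SCO and 5 hippocampus samples of C57BL/6 mice on postnatal day 0 (P0), with no genetic change or treatment named in the labels for either tissue. A further 12 samples, taken on postnatal day 60, were not analysed here. Whether each sample is a separate animal is not stated in the labels, so a p-value reflects only how far these samples differ, and that spread may be technical.

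Voltage-gated channels are membrane pores that open and close with the electrical potential of the cell. Sodium channels carry the rising phase of the action potential, calcium channels couple electrical activity to transmitter release and gene expression, and HCN channels open on hyperpolarization and pass a mixed cation current that sets resting potential and rhythm. Each sodium or calcium channel has 1 pore-forming subunit, and smaller subunits (beta, alpha2delta, gamma) set its delivery to the membrane and its gating. NALCN is a leak channel related to them that stays open near rest.

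A stretch of the 4 alpha2delta genes is shown first because Cacna2d4, the described member nearest to the threshold, belongs to this class and its relatives were farther from it. Each stretch is 69 coding bases from the GENCODE M21 transcripts, 5′ to 3′ in the sense of the gene. The capitals mark the codons of the metal ion adhesion motif of the von Willebrand factor A domain, through which alpha2delta proteins act on the pore.
Cacna2d1: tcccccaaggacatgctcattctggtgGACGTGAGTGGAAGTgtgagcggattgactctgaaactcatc
Cacna2d2: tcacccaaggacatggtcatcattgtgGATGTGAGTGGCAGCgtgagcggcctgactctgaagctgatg
Cacna2d3: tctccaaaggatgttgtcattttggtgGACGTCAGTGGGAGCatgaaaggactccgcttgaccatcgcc
Cacna2d4: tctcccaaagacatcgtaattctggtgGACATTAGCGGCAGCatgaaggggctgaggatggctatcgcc
The stretch lies in 1 exon for Cacna2d4 (exon 8, chr6:119268215-119268283, plus strand) and Cacna2d3 (exon 8, chr14:29346944-29347012, minus strand). It spans exons 9 and 10 in Cacna2d1 and in Cacna2d2 (GRCm38). Compared with Cacna2d4, it differs at 19 bases in Cacna2d3, 24 in Cacna2d1 and 26 in Cacna2d2.

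Values are normalized counts, that is reads per gene after scaling each library by its size factor, and the libraries held 35379988 to 151009954 reads. The tissue labels were checked against marker genes. Sspo and Spdef, genes of the SCO secretory cells, reached 2027 to 9721 and 5375 to 15689 normalized counts in the SCO libraries and at most 3.30 and 244.3 in hippocampus. Neurod6, a gene of cortical excitatory neurons, was at 64361 to 83390 in hippocampus and at 0.91 to 1773 in SCO. Among all 28150 genes tested, 859 passed limma at an adjusted p under 0.05. The mean Spearman correlation of a library with the others of its tissue, across genes, was 0.848 to 0.853 in SCO and 0.863 to 0.884 in hippocampus. SCO replicate 4 had the highest of these values in SCO. The summed level of 7 choroid plexus genes was 177190 in SCO replicate 4 and 1459 to 2853 in the other SCO libraries, and 14276 in hippocampus replicate 2 and 309.5 to 8168 in the other hippocampus libraries. These libraries were also left out together, a choice made with earlier results of these data known. Without this pair no member described passed limma, beside 986 of 27368 genes tested. An unadjusted p under 0.05 in limma was then reached by 2 members higher and 4 lower. The share of all genes at that p was not counted without the pair, so these 2 counts have no background.

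None of the 39 described members that were tested passed limma on log2(value + 1) at an adjusted p under 0.05, beside 1.34% of all genes tested that were called lower and 1.71% called higher. The edgeR quasi-likelihood test on the recovered reads also called 0, beside 1.79% of all genes tested. DESeq2 called 3, Cacna2d4 and Scn11a higher in SCO and Cacna1h lower, beside 9.62% of all genes tested. By sign alone 24 members had a negative and 15 a positive log2 fold change (SCO minus hippocampus). The median log2 fold change was -0.30 for the members and -0.04 for all genes tested, and the median size of the change was 0.80 and 0.85. It is also -0.30 with the 2 tested members that are at 0 reads in a whole tissue (Scn11a and Cacng6) set to their bounds. In 2 members, Cacna1h and Cacna2d4, the libraries of the tissues did not overlap (5.13%), beside 8.53% of all genes tested. An unadjusted p under 0.05 in limma was reached by 5 members (12.8%), Cacna2d4, Scn11a and Nalcn higher and Cacna1h and Cacna2d1 lower in SCO, beside 15.5% of all genes.

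**Figure D1:**
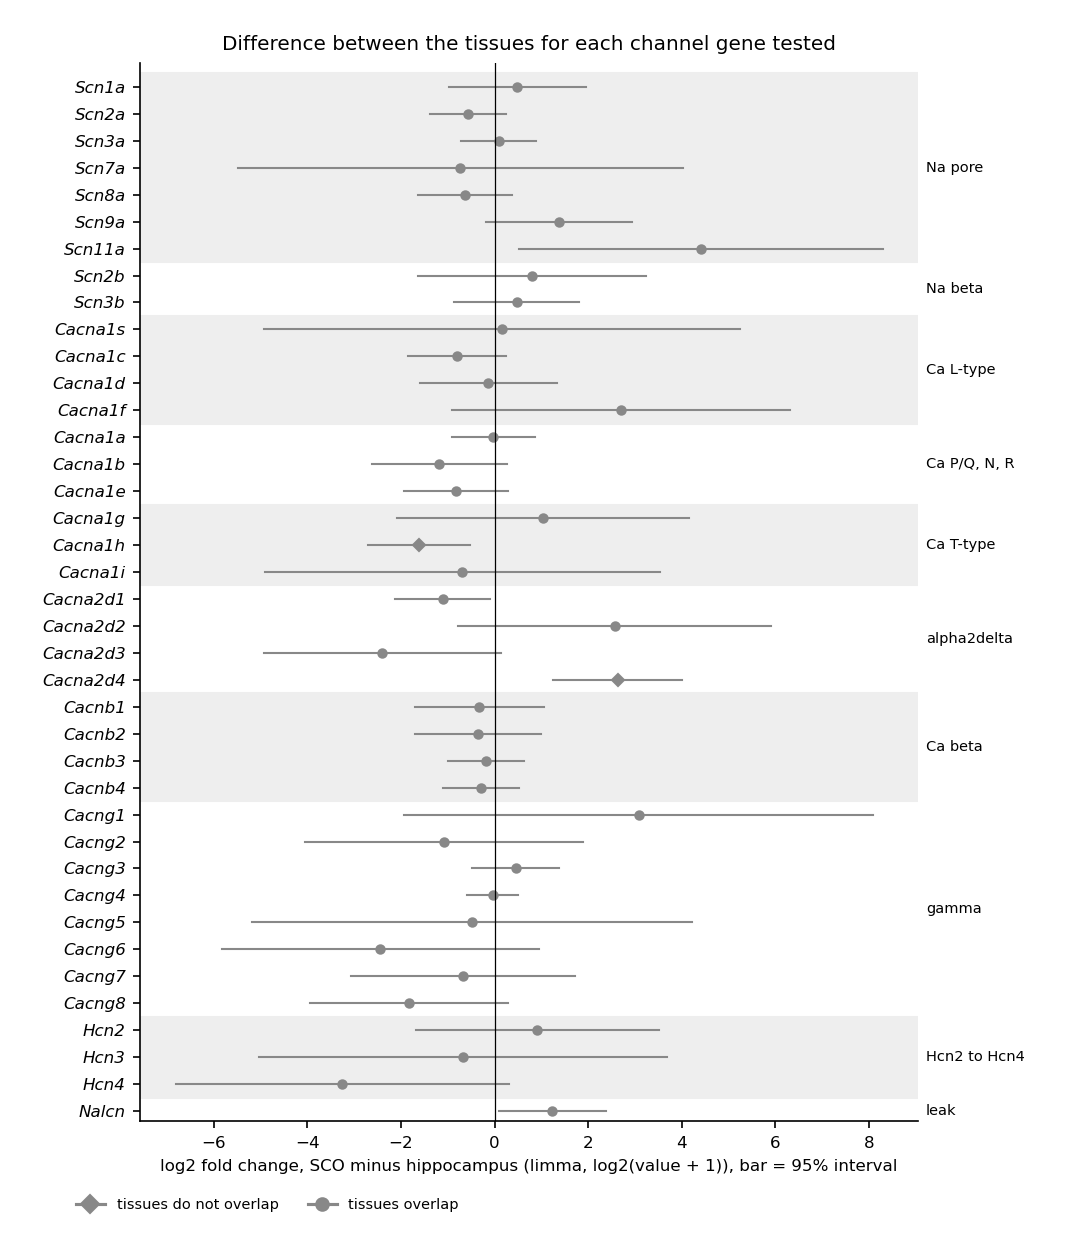
Log2 fold change of each of the 39 channel genes tested, SCO minus hippocampus, with its 95% interval from limma; rows are grouped by class, and diamonds mark genes whose libraries do not overlap between tissues. The diamonds are Cacna1h, to the left of 0, and Cacna2d4, to the right; most other intervals cross 0, and those of low genes such as Cacng1 and Cacna1s span several log2 units.

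The precision was low for many members. The 95% interval of the difference lay within 2-fold in both directions for 4 members, Scn3a, Cacna1a, Cacnb3 and Cacng4, and reached beyond 4-fold for 24. A p above the threshold therefore does not show that the tissues were alike. Most members were detected: 29 had reads in all 9 libraries, 19 had a mean of 1000 or more normalized counts in either tissue, and 8 had a mean under 100 in both. Scn4a, the pore of skeletal muscle sodium channels, had 3 reads over all libraries and Scn4b, a beta subunit, had 1 read, and neither was tested. Since the samples are bulk tissue, fewer cells that express a gene and less RNA per cell cannot be told apart.

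The alpha2delta subunits, extracellular partners that carry calcium channels to the membrane, held the member nearest to the threshold in the direction of SCO. Cacna2d4, whose product is known from photoreceptor synapses, was at 1623, 3077, 2074 and 1856 normalized counts in SCO replicates 1 to 4 and at 389, 464, 671, 71.7 and 495 in hippocampus replicates 1 to 5. All SCO libraries were above all hippocampus libraries, and the means were 2158 ± 640.1 (SD, n = 4) and 418 ± 219 (SD, n = 5). The log2 fold change of 2.63 (SE 0.62) had a limma adjusted p of 0.0514, so it was not called. Without hippocampus replicate 4, its lowest library, the log2 fold change was 2.08 and the limma adjusted p 0.0225. With each of the other 8 libraries left out in turn it was not called, with a limma adjusted p of up to 0.137. DESeq2 on the recovered reads gave an adjusted p of 0.000443, and edgeR did not call it. In the pineal and photoreceptor list no gene was called. Crx and Rcvrn were at 0 in all SCO libraries and at most at 0.38 and 20.6 in hippocampus. Tph1 reached 4962 and Sag 888 in SCO replicate 1, and Rom1 reached 470 in SCO replicate 4. Aanat and Pde6b reached 134 and 3.36 in SCO and 367 and 397 in hippocampus. In hippocampus Tph1 reached 675, Sag 118 and Rom1 93.9. The median log2 fold change of the list was -1.61. The summed level of that list was 205.4 to 5882 in SCO and 119.5 to 1029 in hippocampus. The SCO and ependymal list had 7 of 12 genes called higher, with a summed level of 35842 to 65613 in SCO and 2329.8 to 5324 in hippocampus, and its part in the Cacna2d4 values was not tested.

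Cacna2d1, the alpha2delta subunit bound by gabapentin and the one with the highest mean count in hippocampus, was at 2520.4, 2795, 3346, 1849 and 3419 in hippocampus and at 2445, 2233, 636 and 734 in SCO. SCO replicates 1 and 2 lay inside the hippocampus range and replicates 3 and 4 below it, and the limma adjusted p was 0.276. Cacna2d3, a relative found in brain, spanned 20.7 to 2692 in SCO and 1396 to 3253 in hippocampus. Per kilobase of exon Cacna2d3 was the highest of the class in hippocampus, at 255 normalized counts per kb, and Cacna2d4 in SCO, at 228. Cacna2d2, known from cerebellar Purkinje cells, was at most 453 in any library. Per kilobase of exon, which allows genes to be compared within a library, Cacna2d4 made up 48.2% ± 17.8 (SD, n = 4) of the alpha2delta level in SCO and 8.2% ± 4.4 (SD, n = 5) in hippocampus. Cacna2d4 (chr6:119236526-119352407, plus strand) lies 40.1 kb from Cacna1c (chr6:118587240-119196418, minus strand), an L-type pore gene whose values overlapped between the tissues.

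**Figure D2:**
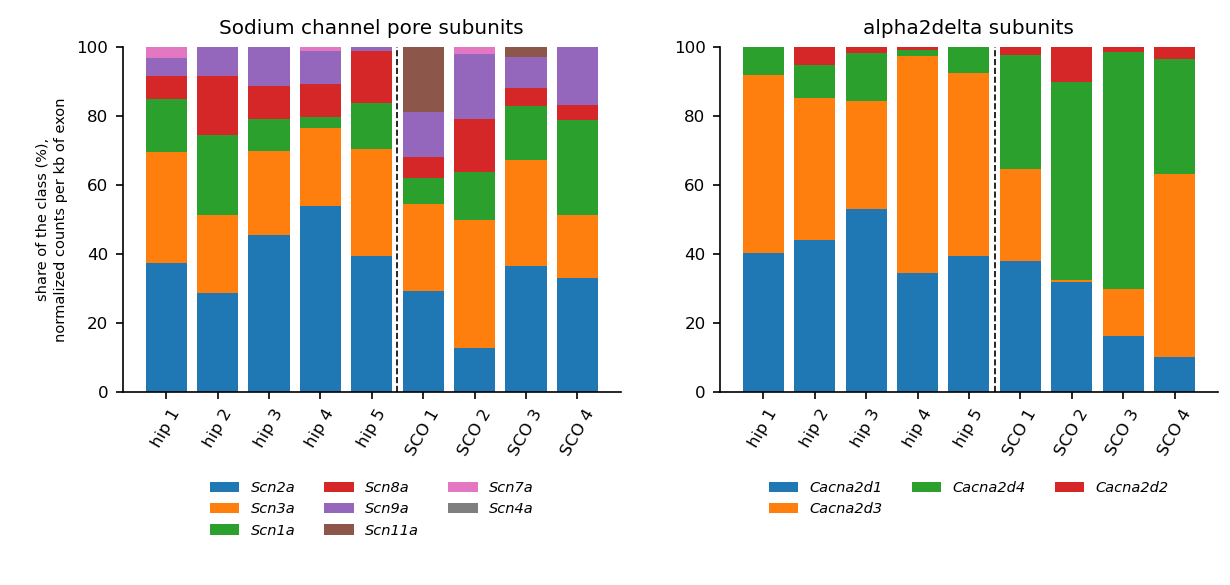
Share of each gene in its class in each library (%), from normalized counts per kilobase of exon, for the sodium channel pore genes described and the alpha2delta subunits; hip 1 to 5 are hippocampus and SCO 1 to 4 are SCO replicates, parted by the dashed line. Cacna2d4 takes 33.1% to 68.7% of the alpha2delta level in SCO and at most 13.9% in hippocampus.

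Among the sodium channel pore subunits described, 0 of the 7 tested were called in either direction, with 4 positive and 3 negative log2 fold changes and a median of 0.0857. Scn2a, the pore of the axons of young excitatory neurons, was at 4724, 2279.7, 4290.3, 4357 and 3082 in hippocampus and at 1960.5, 1384, 3773 and 3423 in SCO. The values overlapped, and the log2 fold change of -0.57 (SE 0.37) had a limma adjusted p of 0.512. Scn3a, the pore of embryonic and newborn neurons, had means of 2619.5 ± 1068 (SD, n = 4) in SCO, against 2431 ± 918 (SD, n = 5). Scn1a, known from inhibitory interneurons, ranged from 451 to 2485 in SCO and from 242 to 1719 in hippocampus. Scn8a, the pore of mature axon initial segments and nodes, ranged from 512 to 2048 and from 951 to 1671. Per kilobase of exon, Scn2a and Scn3a made up 27.9% and 27.7% of the level of these genes on average in SCO, and 40.9% and 26.5% in hippocampus.

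Scn9a, a pore known from peripheral sensory and sympathetic neurons, was at 867, 2011, 939.6 and 1736 in SCO and at 653, 677, 1066, 777 and 84.9 in hippocampus. Hippocampus replicate 3 lay above 2 of the 4 SCO libraries, and the log2 fold change of 1.38 (SE 0.71) had a limma adjusted p of 0.393. Scn11a, a pore of nociceptive sensory neurons, was at 0 reads in all 5 hippocampus libraries and at 589, 1.48, 139 and 0 in SCO. Its SCO mean was at least 65.0-fold higher than the hippocampus floor of 3 reads per library, but SCO replicates 1 and 3 held nearly all of it and the limma adjusted p was 0.25. Of the 3 peripheral neuron markers in the table none was called. Avil was at 521, 0, 63.0 and 0 in SCO replicates 1 to 4 and reached 259 in hippocampus. Pou4f1 was at 4504, 2955, 0 and 114 in SCO and reached 155 in hippocampus. Prph went the other way, at 0, 377, 0 and 1.12 in SCO and 8.74 to 863 in hippocampus (log2 fold change -4.88, limma adjusted p 0.263). The summed level of these 3 markers was 63.0 to 5025 in SCO and 9.99 to 1018.5 in hippocampus. The part of this sum in the Scn11a values was not tested. Pou4f1 made up most of this sum in SCO replicates 1 and 2, and it is also in the habenular, thalamic and pretectal list. Of that list 5 of 12 genes were called higher and 1 lower in SCO, and Pou4f1 was not called (limma adjusted p 0.277). A gene that is in both lists cannot tell these cell types apart. Scn7a, the sodium-sensing channel of glia and circumventricular organs, was at 0 in 2 SCO and 3 hippocampus libraries and at 246 at most.

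These genes share long identical stretches, so the division of reads among them is uncertain. The longest run of identical bases was 188 bases between the longest coding transcripts of Scn1a and Scn2a, 184 between Scn3a and Scn9a and 143 between Scn2a and Scn3a, and the rule for reads that match several genes is not given in the sources. The sodium channel pore genes also lie side by side. Scn3a and Scn2a share chr2:65457118-65767447, and Scn1a, Scn9a and Scn7a share chr2:66270778-66784914. In SCO the neighbours Scn3a and Scn2a had means of 2619.5 and 2635, and Scn1a and Scn9a of 1418 and 1388, while Scn7a, next to Scn9a, had 33.5. In hippocampus the means were 2431 for Scn3a and 3747 for Scn2a, 1050 for Scn1a and 651 for Scn9a, and 59.6 for Scn7a. These means are counts not divided by exon length.

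The sodium channel beta subunits, small membrane proteins that tune gating and adhesion, had 0 of 2 tested members called among those described. Scn3b was the highest of all members per kilobase of exon in SCO, at 2395 normalized counts per kb, and stood at 2101 in hippocampus. It was at 15549, 1763, 15693, 13797 and 10552 normalized counts in hippocampus and at 9539.8, 10104, 18496 and 14176 in SCO. Hippocampus replicate 2 was the low library, and without it the log2 fold change of 0.47 (limma adjusted p 0.708) became -0.12. Scn2b, a subunit joined to the pore by a disulfide bond, was at 481, 389.6, 274, 121 and 10.7 in hippocampus and at 619, 124, 384 and 149.99 in SCO. The values overlapped, and the log2 fold change of 0.80 (SE 1.10) had a limma adjusted p of 0.733.

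**Figure D3:**
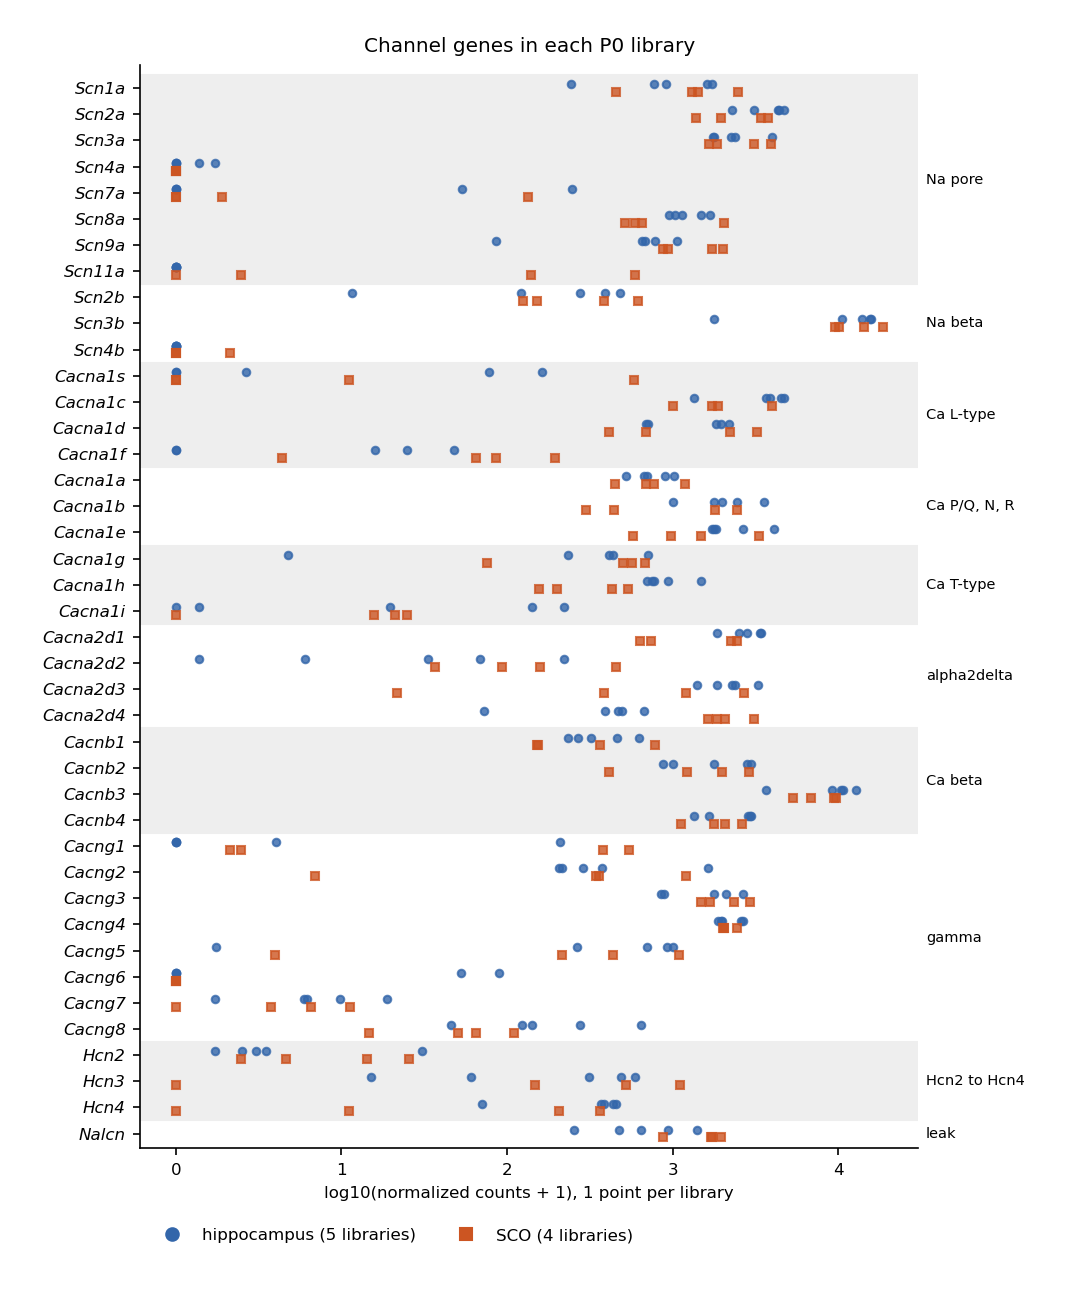
Level of each of the 41 channel genes described in each library on a log10(normalized counts + 1) axis, 1 point per library, grouped by class, with hippocampus as blue circles and SCO as orange squares. The tissues separate for Cacna1h and Cacna2d4, while Cacng4 is high and tight in both and Hcn3, Cacng5 and Cacna2d3 spread widely within SCO.

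The calcium channel pore subunits had 0 of 10 tested members called, 4 of L-type, 3 of P/Q-, N- and R-type and 3 of T-type. Cacna1h, a low-voltage-activated T-type pore, was at 774, 939, 701, 747 and 1471 in hippocampus and at 198, 431, 154 and 534 in SCO. All SCO libraries were below all hippocampus libraries, with means of 329 ± 183 (SD, n = 4) and 927 ± 318 (SD, n = 5), a 2.81-fold ratio. Per 1000 normalized counts of 15 pan-neuronal genes they overlapped, at 0.41 to 1.95 in SCO and 1.43 to 3.36 in hippocampus. The log2 fold change of -1.62 (SE 0.49) had a limma adjusted p of 0.118, and DESeq2 on the recovered reads gave 0.0163. Genes of hippocampal and cortical excitatory neurons were lower with it: 10 of 12 were called lower in SCO, and their summed level was 6429 to 10489 in SCO and 121690 to 157060 in hippocampus. None of these 12 genes was at 0 in all SCO libraries, and their part in the Cacna1h values was not tested. Cacna1g, the T-type pore of thalamic relay neurons, was at 74.6 to 682 in SCO and 3.75 to 708 in hippocampus, and without hippocampus replicate 1 its log2 fold change went from 1.03 to -0.26. Cacna1i, the T-type pore of the reticular thalamus, was at most 23.9 in SCO and reached 221 in hippocampus, where it was at 0 in replicate 2.

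Of the L-type pores, which couple depolarization to gene expression, Cacna1c had the most counts, while per kilobase of exon Cacna1d stood above it in SCO (129 against 101 normalized counts per kb) and below it in hippocampus (117 against 171). Cacna1c was at 3665, 3881, 4721, 1337 and 4515 in hippocampus and at 1729, 3951, 1006 and 1887 in SCO, and the values overlapped (log2 fold change -0.81, SE 0.47, limma adjusted p 0.471). Cacna1d, the L-type pore that opens at lower voltage, spanned 411 to 3204 in SCO and 686 to 2178 in hippocampus, with a log2 fold change of -0.13 in limma and 0.11 in edgeR. Cacna1f, the pore of photoreceptor synapses, was at 194, 63.5, 84.9 and 3.36 in SCO and at 0, 0, 23.7, 14.99 and 46.8 in hippocampus. In 3 of 4 SCO libraries it was above every hippocampus library, the log2 fold change was 2.70 (SE 1.63) and the limma adjusted p was 0.488. Cacna1s, the skeletal muscle pore, had 582 in SCO replicate 1 and at most 161 in any other library. The striated muscle list had no gene called, and its summed level was 498 to 1329 in SCO and 326 to 1794 in hippocampus.

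Of the presynaptic pores, Cacna1e (R-type) had the highest level in counts, at 2663, 1725, 1779, 1816 and 4103 in hippocampus and 979, 3302, 1480 and 576 in SCO, with a limma adjusted p of 0.495. Per kilobase of exon Cacna1b was the highest of them, at 126 normalized counts per kb in SCO and 217 in hippocampus. On this scale Cacna1e was at 62.8 and 95.8, and Cacna1a at 67.6 and 66.7. Cacna1b (N-type), which triggers transmitter release at young synapses, was at 1780.2, 2438, 1992, 999 and 3572 in hippocampus and at 298, 1809, 443 and 2441 in SCO. SCO replicates 1 and 3 lay below the hippocampus range and replicates 2 and 4 inside it, and the log2 fold change of -1.18 (SE 0.65) had a limma adjusted p of 0.432. Cacna1a (P/Q-type), which takes over release at mature synapses, averaged 762 ± 197 (SD, n = 5) in hippocampus, against 772 ± 304 (SD, n = 4) for SCO. The 95% interval of the difference ran from -0.91 to 0.86 on the log2 scale.

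The calcium channel beta subunits, cytoplasmic partners that bring the pore to the membrane, had log2 fold changes near 0. None of the 4 was called, and the changes ran from -0.35 to -0.18 in limma. Cacnb3, the main beta subunit by level, was at 10401, 3676, 12742, 10626 and 9087 in hippocampus and at 9680.1, 9438, 5354 and 6785 in SCO. Per kilobase of exon it made up 82.2% ± 1.5 (SD, n = 4) of the class in SCO and 80.2% ± 11.5 (SD, n = 5) in hippocampus. The interval of its difference, -0.99 to 0.62, lay within 2-fold, and the limma adjusted p was 0.828. Cacnb2, the cardiac beta subunit with the widest fold change of the class (-0.35, SE 0.60, limma adjusted p 0.792), was at 1765, 2821, 877, 996 and 2946 in hippocampus and at 1979.9, 2885, 411 and 1223 in SCO. Without SCO replicate 3 its log2 fold change was 0.20. Cacnb4, known from the cerebellum and the absence seizures of its mutants, ranged from 1128 to 2609.5 in SCO and from 1344 to 2957 in hippocampus. Cacnb1, the skeletal muscle beta subunit, ranged from 151 to 779 and from 231 to 627. The exons of Cacnb4 overlap those of A430018G15Rik on the opposite strand over 1433 bases.

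The gamma class holds 2 kinds of protein under 1 name, true calcium channel subunits such as Cacng1 and regulators of AMPA-type glutamate receptors such as Cacng2, Cacng3, Cacng4 and Cacng8. None of its 8 members was called. Cacng4, an AMPA receptor regulator of the young brain, was at 1887, 2656, 1975, 1952 and 2584 in hippocampus and at 2011, 2445, 2049.9 and 2047 in SCO. It was the steadiest member within both tissues, with 1.22-fold between the SCO and 1.41-fold between the hippocampus libraries, and its interval ran from -0.58 to 0.51. Cacng3, another AMPA receptor regulator, averaged 1650.3 ± 779 (SD, n = 5) in hippocampus, against 2112 ± 658 (SD, n = 4) for SCO. Cacng1, the skeletal muscle gamma subunit, was at 1.49, 381, 546 and 1.12 in SCO and at 0, 0, 206, 0 and 3.04 in hippocampus, which is presence in 2 SCO libraries and 1 hippocampus library above a few reads. Its log2 fold change of 3.08 (SE 2.27) had a limma adjusted p of 0.579.

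Cacng2, which codes for stargazin, ranged from 5.97 to 1194 in SCO and from 204 to 1629.5 in hippocampus. Cacng5 ranged from 2.95 to 1089 and from 0.76 to 1006. Cacng7, Cacng8 and Cacng6 lie together at chr7:3332955-3435667. Cacng7 stayed at or under 17.9 in every library, Cacng8 was at 13.7 to 109 in SCO and 44.6 to 639 in hippocampus, and Cacng6 was at 0 in SCO and at 51.6 and 88.9 in hippocampus replicates 3 and 4. The mean of Cacng6 in hippocampus was at least 7.49-fold higher than the SCO floor of 3 reads per library.

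Of the HCN channels, Hcn2, Hcn3 and Hcn4 varied widely from library to library, and 0 of these 3 were called. Hcn4, the main subunit of the cardiac pacemaker and of thalamic neurons, was at 366, 381, 69.1, 451 and 435 normalized counts in hippocampus replicates 1 to 5 and at 206, 0, 10.04 and 360.4 in SCO replicates 1 to 4. Its log2 fold change of -3.25 (SE 1.61) had a limma adjusted p of 0.369. The hippocampus mean was 2.36 times that of SCO, and without SCO replicate 2, at 0, the log2 fold change was -1.61. Hcn3, a slowly activating subunit, was at 489, 59.4, 591, 311 and 14.1 in hippocampus and at 0, 1106, 146 and 522 in SCO. The direction for Hcn3 was not fixed: its log2 fold change was -0.67 in limma and 0.55 in edgeR. Hcn2, the broadly expressed brain subunit, stayed at or under 29.7 in every library. The exons of Hcn3 overlap those of Pklr on the opposite strand over 711 bases, and since the strand setting is not given in the sources, reads from such pairs cannot be told apart.

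Nalcn (chr14:123276634-123627144, minus strand), the pore of the sodium leak channel, was at 1719, 867, 1704 and 1964 in SCO and at 640.4, 941, 1402, 475 and 254 in hippocampus. Hippocampus replicates 2 and 3 lay above SCO replicate 2, and the other SCO libraries were above all of hippocampus. The means were 1563 ± 479.6 (SD, n = 4) and 743 ± 446 (SD, n = 5), and the log2 fold change of 1.24 (SE 0.52) had a limma adjusted p of 0.281. Of the genes of its complex, 0 of 3 tested were called. Fam155a, its chaperone and the highest of them, averaged 5157 ± 1879 (SD, n = 5) in hippocampus, against 3309 ± 1419 (SD, n = 4) for SCO.

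The spread between libraries of 1 tissue was wide across the members described. With values under 3 reads raised to 3 reads, the highest library exceeded the lowest more than 10-fold in 11 of the 37 members with a mean of at least 10 in SCO (29.7%, beside 37.5% of all such genes). In hippocampus it did so in 13 of 36 (36.1%, beside 37.7%). The widest was Cacng5 in hippocampus, 881-fold, and Hcn3 in SCO, 247-fold. Of the members with a mean of 1000 or more, the median spread was 2.55-fold in SCO and 2.75-fold in hippocampus, and 2.06-fold and 2.59-fold for all genes of that level. The 4 highest members per kilobase of exon were Scn3b, Cacnb3, Cacng3 and Cacng4 in both tissues, auxiliary subunits in each case.

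The members were also set against 15 pan-neuronal genes of the same library, since the tissues may hold different shares of neurons. The summed pan-neuronal level was 221210 to 451060 in SCO and 419950 to 553320 in hippocampus, and Dcx and Snap25 were the 2 of 15 called, both lower in SCO. Per 1000 pan-neuronal normalized counts, the members described together summed to 126 ± 33.2 (SD, n = 5) in hippocampus, against 184 ± 71.2 (SD, n = 4) for SCO, and these ranges overlapped. Nalcn was at 3.92 to 6.73 in SCO and 0.58 to 2.86 in hippocampus on this scale. Cacna2d4, Cacng3 and Scn9a were the others whose libraries did not overlap. That is 4 of 39 members (10.3%), beside 9.85% of all genes tested.

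**Figure D4:**
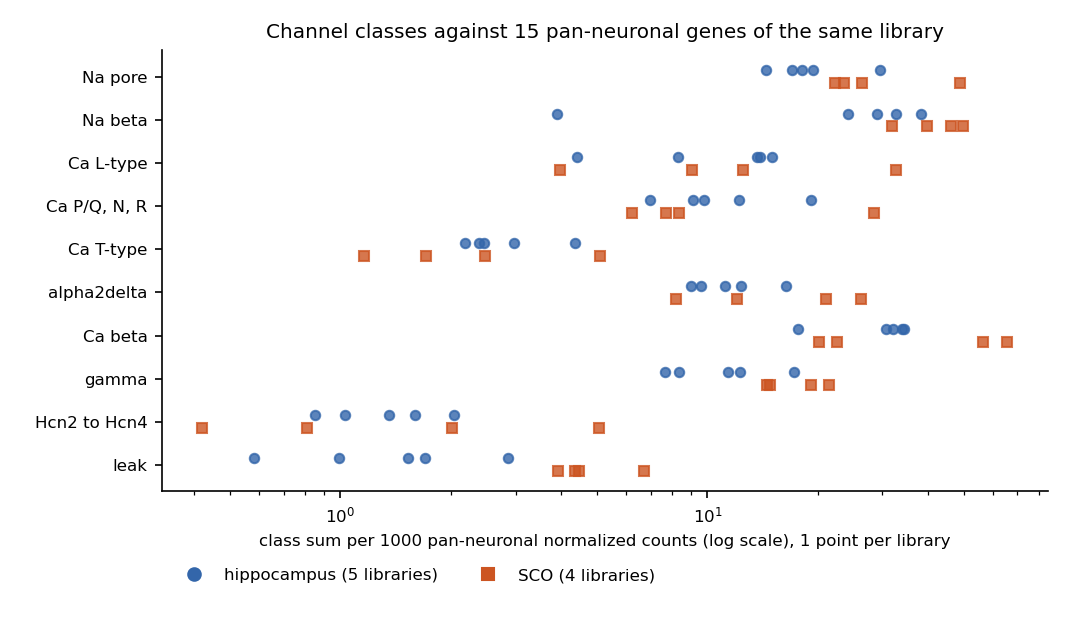
Summed level of each channel class per 1000 normalized counts of 15 pan-neuronal genes in the same library, on a log axis, 1 point per library, hippocampus as blue circles and SCO as orange squares. Apart from the leak channel, where SCO is at 3.92 or more and hippocampus at 2.86 or less, the classes overlap; for HCN channels the sum is of Hcn2, Hcn3 and Hcn4.

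The genes known to act on these channels were taken from 4 lists. Of the 12 sodium channel partners, 2 were called, both lower in SCO, of the 7 HCN partners 1 was called, lower in SCO, and of the 15 calcium channel partners 0 were called. Ank3, which codes for ankyrin-G, the anchor of sodium channels at the axon initial segment, was at 3427 to 5494 in SCO and 8268 to 11799 in hippocampus (log2 fold change -1.21, limma adjusted p 0.0165). Cntn2, an axonal adhesion protein of the nodal region, was at 28.3 to 1234 and at 3409 to 6916 (log2 fold change -3.95, limma adjusted p 0.0482). Nedd4l, a ubiquitin ligase that acts on sodium and other channels, was at 1696 to 3910 and at 5319 to 12019 (log2 fold change -1.49, limma adjusted p 0.0384). For all 3 the libraries of the tissues did not overlap. With 1 library left out at a time, the Ank3 call was lost without hippocampus replicate 3 (limma adjusted p 0.0509) or SCO replicate 3 (0.0505). The Cntn2 call was held only without SCO replicate 1 or SCO replicate 3 (limma adjusted p 0.0382 and 0.00503). The Nedd4l call was held only without hippocampus replicate 2 or SCO replicate 4 (limma adjusted p 0.0217 and 0.0486). In edgeR on the recovered reads the adjusted p was 0.0224 for Ank3, 0.0826 for Cntn2 and 0.0516 for Nedd4l. Averaged over both tissues, the highest partner of each of these lists was Cntn1, a contactin, at 10541 to 25575 in SCO and 6389 to 10954 in hippocampus, Calm2, a calmodulin gene, at 110980 to 263990 and 284690 to 672090, and Nedd4l in the HCN list; within a single tissue the order differed, with Fgf13 above Cntn1 in hippocampus and Flna above Nedd4l in SCO. Neither Cntn1 (limma adjusted p 0.181) nor Calm2 (0.0854) was called.

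The authors' deposited table holds their own comparison of the same libraries. Its log2 fold changes for Cacna2d4, Cacna1h and Scn11a equal those of DESeq2 on the recovered reads, so it adds no separate evidence for them. Of the 39 members described that have an adjusted p in the authors' deposited table, 3 were under 0.05, beside 12.7% of all genes with one. They are Cacna2d4 (log2 fold change 2.37, adjusted p 0.000442), Cacna1h (-1.49, 0.0154) and Scn11a (10.3, 0.00263) in the authors' deposited table.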

How the data were processed

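Per the submitters' processing notes, reads were handled with FastQC, HISAT, HISAT2, featureCounts and DESeq2 on GRCm38. The authors deposited 1 table of P0 libraries, whose signal values are normalized counts per gene. The log2 fold change and the adjusted p-value of the authors' own comparison are deposited in the same table, per the file headers. Dividing each library by its smallest step gave whole reads for 100% of values (tolerance 1e-06), and a gene at 0 was bounded by 3 reads, which covers counting error only.

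The 28150 genes whose mean reached 1 in SCO or in hippocampus were tested with limma 3.58.1 in R 4.3.3 on log2(value + 1) without covariates, Benjamini-Hochberg adjusted over all of them. Such fold changes understate low genes. edgeR 4.0.16 and DESeq2 1.42.0 on the recovered reads were alternatives. The 41 members described matched GENCODE M21, 36 with the version of the identifier. Lengths are unions of exons.

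Members and gene lists were chosen with earlier results of these data known. Of the 44 members, 3 are not reported here, nor is 1 marker gene, and no count, median or class sum of members includes them, so these do not describe the whole group. Members given library by library are, per class, the highest and the most changed, and some others were added after their values were seen. Only the limma steps were checked on simulated counts, with changes set in well-covered genes and the same spread setting for every gene. That check does not cover members whose libraries varied more widely.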

Additional observations from a re-analysis of the deposited data

Results flagged for a closer look

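In 10 of 76 groups (39 genes in each tissue, less 2 groups at 0 throughout), 1 library lay apart from the rest of its group by Dixon's criterion. That is 13.2%, beside 26.2% of the groups of all genes tested. Chance gives about 1 in 20 groups of normal values, and these are untransformed counts with many zeros. In SCO, replicate 2 was high for Scn7a (132.9 normalized counts), Scn8a (2048) and Cacng4 (2445), and replicate 1 for Cacna1s (581.9). In hippocampus, replicate 1 was high for Scn3a (3995) and Scn7a (245.9), replicate 2 for Hcn2 (29.71), replicate 3 for Cacng1 (206.4) and replicate 5 for Cacng2 (1630), and replicate 3 was low for Hcn4 (69.13). SCO replicates 3 and 4 and hippocampus replicate 4 stood apart for none of these genes.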

How the results depend on the processing

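Over 20 alternative settings, 721 of 779 values of single members kept their direction and their side of the threshold, 52 changed sign (18 members) and 6 gained a call. Of the members, 0 were called higher and 0 lower. Settings that leave out libraries take out each of the 9 in turn, or SCO replicate 4 and hippocampus replicate 2 together (the pair). Higher calls were 1 with a pseudocount of 5, 1 with a minimum mean of 10, 2 with DESeq2 and 0 to 1 with libraries left out. Lower calls were 1 with DESeq2 and 0 with libraries left out. Over all genes, edgeR called 300 higher and 203 lower, DESeq2 1493 and 1215, and leaving out libraries gave 285 to 647 and 189 to 457. Of partner genes, DESeq2 called 1 higher, and 3 were called lower in limma, 1 without a filter, 1 with edgeR, 8 with DESeq2, and 0 to 5 with libraries left out (5 without the pair). The cause of these differences was not tested. In edgeR 2 members higher and 2 lower had an unadjusted p under 0.05, and the share of all genes at that p was not counted for edgeR.

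The labels do not say whether the replicate numbers pair the samples. Deviations of libraries with the same title number correlated at -0.0006, -0.0248, 0.0189 and -0.0289. Those of the 2 pairs with the same bracketed number correlated at -0.0248 and 0.0569. Pairs that share neither number ran from -0.0329 to 0.0340. Correlations this small between different tissues cannot decide whether samples were paired. With the replicate block by title number, 0 genes were called higher and 1 lower, and by bracketed number 0 and 0, with 0 members and 0 partner genes in each direction under both. A block compares the tissues only within numbers that occur in both of them, which for bracketed numbers are the 2 pairs. Little is then left to estimate the spread, so the lack of calls and the turned signs say little about the members. Signs turned under the replicate block by bracketed number for Cacna1a (0.0941), Cacna1d (0.72), Cacna1e (0.32), Cacna1s (-2.11), Cacnb1 (0.33), Cacnb3 (0.19), Cacng2 (0.0976), Cacng7 (1.02), Hcn3 (1.55) and Scn7a (1.13), and by title number for Cacng4 (0.0236) and Scn2b (-0.12).

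Other log2 fold changes that turned sign were Cacna1a (DESeq2 0.0197), Cacna1d (edgeR 0.11, DESeq2 0.15) and Hcn3 (edgeR 0.55, DESeq2 0.60), and, without the pair, Cacna1a (0.017), Cacng4 (0.0529) and Scn3b (-0.18). Leaving out libraries gave -0.26 to 0.21 for Cacna1a, -0.65 to 0.38 for Cacna1d, -0.26 to 1.77 for Cacna1g, -2.05 to 0.40 for Cacna1i, -1.85 to 1.24 for Cacna1s, -0.74 to 0.20 for Cacnb2, -2.09 to 0.48 for Cacng2, -0.10 to 0.0529 for Cacng4, -2.18 to 1.24 for Cacng5, -1.16 to 0.0069 for Cacng7, -1.84 to 1.53 for Hcn3, -0.12 to 1.405 for Scn2b, -0.14 to 0.28 for Scn3a, -0.18 to 0.67 for Scn3b and -2.42 to 0.57 for Scn7a. None of these members was called in any setting run.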
